A study of Mus musculus with 15 samples.

Results

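Perivascular adipose tissue (PVAT) of the abdominal aorta was compared with PVAT of the thoracic aorta in mice whose adipocytes lack Prdm16. The comparison took aPVAT cKO 1, 3 and 4 against tPVAT cKO 1 to 4, which is 7 of the 15 libraries analysed here. They were chosen by depot and genotype and by no measured value. All mice were 11 weeks old and carried the Prdm16flox allele. The cKO mice carried AdipoQCre+ as well, and the control mice, with 4 libraries for each depot, did not. The adiponectin promoter that drives this Cre is active in adipocytes, so the other cells of the tissue keep an intact Prdm16 gene. The labels give neither the sex of the mice nor whether each sample is an animal of its own. The p-values therefore speak of the spread among these samples, which may be technical. The question was how far the depots still differ once Prdm16 is lost from adipocytes in both.

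PRDM16 is a zinc finger coregulator that works with EBF2, PPAR family receptors and their PGC coactivators to switch on the thermogenic program of brown and beige adipocytes. These cells burn fuel as heat through UCP1, a carrier that lets protons cross the inner mitochondrial membrane without making ATP, and they are dense in mitochondria. In mice, PVAT around the thoracic aorta resembles brown fat, while PVAT around the abdominal aorta is closer to white fat, whose large droplets store triglyceride. Both tissues also hold vessels, nerves, fibroblasts and immune cells, and in bulk RNA fewer cells of a type and less RNA per cell cannot be told apart.

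Each library had 37.8 to 68.7 M counts in aPVAT cKO, with the lowest total in aPVAT cKO 4, and 63.5 to 68.7 M in tPVAT cKO. Control libraries had 50.6 to 67.1 M. Levels are given as CPM, the counts of a gene per M counts of the TMM-scaled library, a scaling that assumes most genes to be unchanged between libraries. Differences are log2 fold changes, aPVAT minus tPVAT, with a standard error (SE). A gene is called where its adjusted p from edgeR's quasi-likelihood test was under 0.05. Among the aPVAT libraries, cKO 4 had 2.10% and control 2 had 0.898% of its counts on Gm42418, a predicted gene, while the remaining 13 libraries of both depots had 0.0641% to 0.198%. Counts that lead a paragraph were therefore also run without those 2 libraries.

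Prdm16 itself was lower in aPVAT cKO than in tPVAT cKO. It lay at 15.1, 14.7 and 18.3 CPM in aPVAT cKO 1, 3 and 4, and at 22.4, 21.2, 22.2 and 23.8 CPM in tPVAT cKO 1 to 4. Controls held 21.4 to 26.8 CPM in aPVAT and 41.1 to 55.6 CPM in tPVAT, so every cKO library of a depot lay below every control of that depot. The gene (chr4:154316125-154636873, minus strand, mm10) fell by 0.48 (SE 0.11) in aPVAT cKO on the log2 scale, with an adjusted p of 0.00126. Scaled by library size alone, the difference was 0.17 with an adjusted p of 0.129. B230104I21Rik overlaps Prdm16 on the opposite strand and may share reads with it.

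With Prdm16 deleted from adipocytes of both depots, the depots still differed widely. Of 19645 genes tested, 10325 (52.6%) were called, 5341 higher (27.2%) and 4984 lower (25.4%) in aPVAT cKO. Counts of list members called, given below, are to be read against these shares of 27.2% and 25.4%. Called genes with an estimated difference of at least 2-fold numbered 2857 (14.5%), 1365 higher (6.95%) and 1492 lower (7.59%). For at least 8-fold there were 98 higher and 145 lower. A test against a 2-fold threshold called 1035 genes, 319 higher and 716 lower. The libraries of the depots did not overlap for 55% of tested genes, 27.4% with aPVAT cKO on the higher side and 27.5% on the lower. Without aPVAT cKO 4 and aPVAT control 2 there were 9689 calls, 4906 higher and 4783 lower. In controls, 11122 genes were called (56.6%), 5750 higher (29.3%) and 5372 lower (27.3%) in aPVAT. The median difference over all tested genes was 0.04 in cKO. Scaling by library size alone moved this median to 0.69 and turned the split into 13596 higher and 1410 lower, so all differences below are relative to the TMM scale, and a gene that is lower by less than this shift is higher on the other.

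Thermogenic genes had the lowest median of the lists with at least 5 tested genes. Of 37 thermogenic adipocyte genes tested, 35 were lower in aPVAT cKO, none was higher, and 33 were lower by at least 2-fold, with a median of -3.21. Their summed level was 931 to 998 CPM in aPVAT cKO and 10006 to 11880 CPM in tPVAT cKO. The control median was -2.61. Adrb3, the β3-adrenergic receptor that starts lipolysis in fat cells, was not called (-0.00), nor was Slc29a1, a nucleoside transporter (0.14). Without aPVAT cKO 4 and aPVAT control 2, 34 were lower.

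Ucp1 (chr8:83290352-83298452, plus strand) was at 5.56, 47.8 and 3.15 CPM in aPVAT cKO 1, 3 and 4. In tPVAT cKO 1 to 4 it was at 3995, 3497, 4325 and 4419.7 CPM. The groups lay far apart, and within aPVAT cKO aPVAT cKO 3 was the highest. Ucp1 fell by 7.74 (SE 0.83) on the log2 scale, with an adjusted p of 1.48e-06. Control aPVAT held 363 to 731 CPM and control tPVAT 5935 to 6581 CPM, a difference of -3.52.

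Fabp3, which carries fatty acids within heart, muscle and brown fat cells, was at 1.41, 4.26 and 1.39 CPM in aPVAT cKO and at 368, 259.5, 357 and 426 CPM in tPVAT cKO. Its difference was -7.19 (SE 0.45, adjusted p 3.74e-09). Fabp3-ps1, a pseudogene copy that can share its reads, differed by -7.17, so the count of either is uncertain. Cox7a1 (chr7:30184144-30186078, plus strand), the muscle and brown fat form of a cytochrome oxidase subunit, was at 1.54, 3.19 and 1.82 CPM against 149, 114, 198 and 169 CPM, a difference of -6.16 (SE 0.32, adjusted p 8.26e-10). Cpt1b, the muscle form of the enzyme that admits long-chain fatty acids to mitochondria, was at 0.215, 0.334 and 0.214 CPM against 14.9, 11.6, 15 and 17.4 CPM. None of these genes had overlapping groups, which the rule that named them required.

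Cidea, a lipid droplet protein of brown fat, kept a measurable level in abdominal fat, 76.8, 58.7 and 52.8 CPM, against 1391, 1274, 1286 and 1366 CPM in tPVAT cKO (-4.40, SE 0.16). Elovl3, an elongase of very long fatty acids, was at 5.97, 6.5 and 2.53 CPM against 217, 161, 205 and 192 CPM (-5.25). The deiodinase gene Dio2, which activates thyroid hormone, was at 9.21, 13 and 7.3 CPM against 134, 98.3, 179 and 125 CPM (-3.76). In these genes the libraries of the depots were far apart. Ppargc1a, the coactivator of mitochondrial biogenesis, was at 10.1, 8.83 and 7.75 CPM against 62.8, 40.8, 56.5 and 45.5 CPM (-2.52). Its groups did not overlap either. Otop1 (-3.91), Acot11 (-4.99), Pdk4 (-4.24), Slc27a2 (-5.95) and Cpn2 (-5.86) were also lower, while Ebf2, an early factor of the brown lineage, was lower by less (-0.63) and sat at 0.03 with library size alone.

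**Figure D1:**
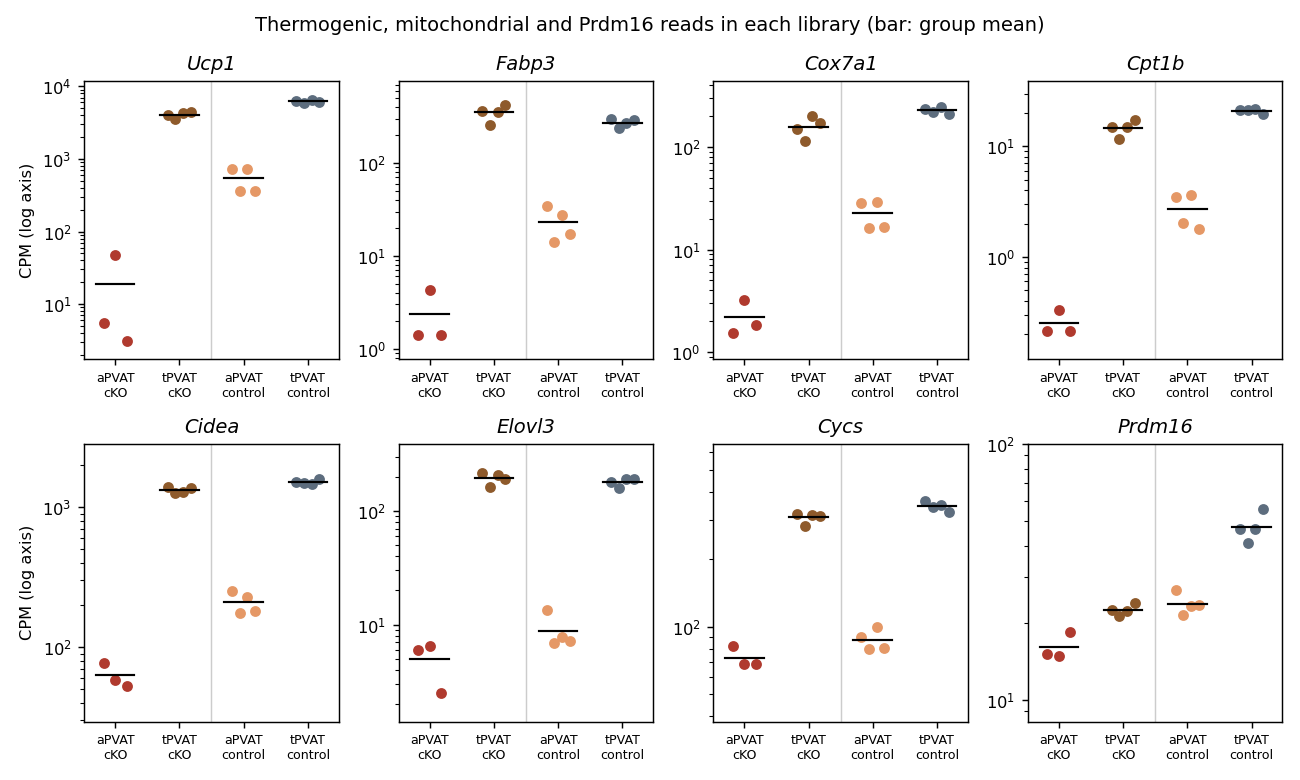
Level of 8 genes in each library, in CPM on a log axis, for the 4 groups of depot and genotype; each point is 1 library and each bar the group mean. Ucp1, Fabp3, Cox7a1 and Cpt1b are lowest in aPVAT cKO, where Ucp1 lies between 3.15 and 47.8 CPM, and Prdm16 is the panel with the smallest gap between depots.

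Heart muscle markers moved the same way as the thermogenic genes. Of 18 tested, 16 were lower and 1 was higher (Gja5) in aPVAT cKO, with a median of -3.0, and their summed level was 63.0 to 69.8 CPM in aPVAT cKO and 138 to 292 CPM in tPVAT cKO. Myh6, the atrial myosin heavy chain, was at 0.238, 0.262 and 0.193 CPM against 37.2, 27.9, 88.4 and 74.5 CPM (-7.90). Mybphl had no count in aPVAT cKO and 51 to 146 counts in each tPVAT cKO library, at least 123-fold lower against a floor of 3 counts over the group. Nppb and Nkx2-5 had 0 to 9 counts in every library, and Myl2, the ventricular myosin light chain, had 0 to 3 counts in all groups but control tPVAT, where its highest count was 55. None of these 3 passed the low-count filter. Controls showed the same direction, with sums of 65.0 to 77.4 CPM in aPVAT and 298 to 385 CPM in tPVAT. Heart muscle also uses Fabp3, Cox7a1, Cpt1b and Cox8b, and the part of heart RNA in those differences was not tested.

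Myoglobin (Mb), an oxygen store of heart, muscle and brown fat, showed the largest fall among the genes the naming rule took. It was at 0.51, 1.08 and 0.792 CPM in aPVAT cKO and at 292, 154, 434 and 322 CPM in tPVAT cKO, a difference of -8.56 (SE 0.38, adjusted p 2.59e-10). Control aPVAT held 0.245 to 0.335 CPM and control tPVAT 28.5 to 39.3 CPM, and the difference between genotypes in the depot gap was not called (adjusted p 0.224). Apol6 and Gm49540 overlap it on the opposite strand.

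Genes of the respiratory chain were lower across nearly the whole list, by less than the thermogenic genes. Of 78 nuclear genes for subunits and cytochrome c, 74 were lower and 3 were higher in aPVAT cKO, with a median of -1.33 and a control median of -1.44. The count was 74 without aPVAT cKO 4 and aPVAT control 2. Cycs, which encodes cytochrome c, was at 82.2, 68.5 and 67.9 CPM against 319, 282, 316 and 313 CPM (-2.08, SE 0.10, adjusted p 3.75e-10). Sdhd, the membrane anchor of complex II, was at 118, 99.4 and 109 CPM against 354, 327, 349.9 and 361 CPM (-1.68, SE 0.09, adjusted p 1.30e-09). Cycs was taken from genes whose groups did not overlap, and Sdhd, whose groups did not overlap either, was chosen after its values were seen.

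The 3 members that were higher were all tied to ATP synthase. Atp5g3, which encodes its membrane ring subunit c, was at 258, 213 and 239.7 CPM against 199, 212, 197 and 189 CPM (0.25, SE 0.07, adjusted p 0.00901). Atp5g1, another gene for subunit c, was higher by 0.64, and Atpif1, the inhibitor of the synthase, by 0.33. Atp5g2, whose product is the same subunit, was the member that was not called. Of 5 heart and muscle type cytochrome oxidase isoforms, 3 were lower: Cox7a1, Cox6a2 (-5.05) and Cox8b (-2.62). Cox8b was at 54.3, 48.9 and 48.9 CPM against 308, 254, 354 and 328 CPM.

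Promoters of these genes are shown because members of the lists moved together, and because Sdhd and Atp5g3 moved apart while holding the same searched letters. Each runs 5′ to 3′ on the gene's strand from 250 bases before to 50 after the annotated start, from RefSeq on GRCm38.p6, with matched letters in capitals. The Ucp1 window is chr8:83290098-83290397 on the plus strand, Cox7a1 is chr7:30183921-30184220 on the plus strand, Sdhd is chr9:50603800-50604099 on the minus strand, and Atp5g3 is chr2:73911277-73911576 on the minus strand.
Ucp1: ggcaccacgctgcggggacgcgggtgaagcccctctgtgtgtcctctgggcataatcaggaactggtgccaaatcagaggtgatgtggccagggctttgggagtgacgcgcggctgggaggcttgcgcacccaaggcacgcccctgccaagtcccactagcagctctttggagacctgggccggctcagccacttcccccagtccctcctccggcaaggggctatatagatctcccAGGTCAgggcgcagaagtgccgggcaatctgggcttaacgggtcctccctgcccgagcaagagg
Cox7a1: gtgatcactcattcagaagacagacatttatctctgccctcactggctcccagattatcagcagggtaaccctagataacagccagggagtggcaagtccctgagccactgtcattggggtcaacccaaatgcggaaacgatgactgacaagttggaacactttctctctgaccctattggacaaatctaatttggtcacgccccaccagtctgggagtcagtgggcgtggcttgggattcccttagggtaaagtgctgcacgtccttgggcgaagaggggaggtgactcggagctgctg
Sdhd: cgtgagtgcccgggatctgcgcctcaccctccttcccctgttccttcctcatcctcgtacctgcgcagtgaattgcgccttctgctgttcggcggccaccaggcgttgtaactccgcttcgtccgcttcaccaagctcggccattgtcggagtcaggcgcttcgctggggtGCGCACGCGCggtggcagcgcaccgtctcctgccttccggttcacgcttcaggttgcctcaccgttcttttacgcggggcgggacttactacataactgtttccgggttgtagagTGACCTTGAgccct
Atp5g3: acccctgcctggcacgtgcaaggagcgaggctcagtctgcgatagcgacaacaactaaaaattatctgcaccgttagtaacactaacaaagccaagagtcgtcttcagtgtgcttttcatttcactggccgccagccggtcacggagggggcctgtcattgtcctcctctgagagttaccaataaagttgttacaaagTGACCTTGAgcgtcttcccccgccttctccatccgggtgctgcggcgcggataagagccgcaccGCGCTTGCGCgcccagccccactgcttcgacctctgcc
Letters of 3 kinds were searched on both strands: GCGCA and GCGC with any 1 base between them, bound by NRF1, TCAAGGTCA, bound by estrogen-related receptors, and AGGTCA, the nuclear receptor half-site, which lies within the second. Ucp1 held AGGTCA at base 237 of the window, and Cox7a1 held none of the 3. Sdhd held the NRF1 letters at base 172 and the receptor letters at 287, and Atp5g3 held them at 263 and 199. The receptor letters were on the opposite strand in both, and so were the NRF1 letters of Atp5g3 but not those of Sdhd.

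The NRF1 letters were in 19 of 70 promoters of respiratory chain genes (27.1%), in 13 of 73 of mitochondrial ribosomal protein genes (17.8%) and in 1 of 43 of thermogenic genes (2.33%, Ppara). They were in 2 of 32 promoters of TCA cycle genes (6.25%), 2 of 22 of fatty acid oxidation genes (9.09%) and 2 of 21 of white fat genes (9.52%). They were in 4.6% of all 32851 promoters and in 8.2% of those of tested genes. TCAAGGTCA was in 2 of 70 respiratory promoters (2.86%), those of Sdhd and Atp5g3, and in no promoter of the other lists. Its share was 0.423% of all promoters and 0.305% of those of tested genes. The half-site was in 11 of 43 thermogenic promoters (25.6%), 16 of 70 respiratory promoters (22.9%) and 0 of 21 promoters of white fat genes, against 16.3% of all and 13.1% of those of tested genes. These are matches of letters and not bound sites.

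Transcripts of the mitochondrial genome followed the nuclear genes. They made up 13.5% ± 0.311 of counts in aPVAT cKO (SD, n = 3, range 13.3 to 13.9) and 29.9% ± 2.38 in tPVAT cKO (SD, n = 4, range 26.5 to 31.6), a difference of -16.4 points. The groups did not overlap, and the exact two-sided permutation p was 0.0571, the smallest that 3 against 4 can give, so this design cannot reach 0.05. Controls stood at 14.4% ± 1.23 and 34.6% ± 1.28. All 13 protein genes of that genome were lower in aPVAT cKO (median -1.91), led by mt-Nd2 at 5431, 5035 and 4405 CPM against 29703, 23421, 32452 and 31777 CPM (-2.57).

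Other mitochondrial pathways shifted down as well. Of 25 fatty acid oxidation genes 24 were lower, with a median of -1.47, and Cpt1a, the liver type of the entry enzyme, was higher by 0.45. Of 26 genes of the TCA cycle and pyruvate entry, 23 were lower and 1, Pdk3, was higher (median -1.62), and Idh3a, a subunit of isocitrate dehydrogenase, differed by -2.39. Mitochondrial ribosomal proteins were lower for 72 of 76, with a median of -0.72 that came close to 0 (-0.07) with library size alone. Of 19 genes of branched-chain amino acid breakdown, 13 were lower and 2 higher (Bcat2 and Ivd), with a median of -0.59 that turned to 0.07 with library size alone.

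Lipid synthesis was lower in abdominal fat, though its genes drew many reads in both depots. Of 22 lipogenic genes 17 were lower and 1 higher (Srebf1) in aPVAT cKO, with a median of -0.85, or -0.20 with library size alone. Scd1, which desaturates fatty acids, was at 33768, 24610.0 and 25149 CPM in aPVAT cKO against 65738, 60808, 60673 and 60384 CPM (-1.15, SE 0.14, adjusted p 5.25e-06). Acly, which makes cytosolic acetyl-CoA, was at 3179, 2082 and 1535 CPM against 5149, 5353, 4715 and 3998 CPM (-1.08), and was not called with library size alone (-0.43, adjusted p 0.0744). Gpd1, which supplies the glycerol backbone, was at 1877, 1636 and 1792 CPM against 7705, 6495, 7773 and 8454 CPM (-2.10). In none of the 3 did the groups overlap, which the rule that named them required.

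Adipocyte genes that are not specific to brown fat were mixed, with 6 of 18 higher (33.3%) and 9 lower (50%). Over all tested genes the shares were 27.2% and 25.4%. The median of the list was -0.18, or 0.47 with library size alone. Adiponectin (Adipoq), the gene whose promoter drives the Cre, was at 1470.1, 1366 and 1837 CPM in aPVAT cKO and 1066, 1228, 1046 and 1120.4 CPM in tPVAT cKO (0.48). Lipolysis and droplet genes had 3 higher and 12 lower of 20 (median -0.52, or 0.13 with library size alone), among them Plin5 (-2.59) and Plin2 (-1.79). Cholesterol synthesis had 3 higher (13.6%) and 8 lower (36.4%) of 22 (median -0.13, or 0.53 with library size alone).

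Genes selective for white fat were higher in abdominal fat. Of 20 tested 15 were higher, with a median of 1.14 and a control median of 2.15, and Trp53inp2 and Npr3, a natriuretic peptide clearance receptor, were lower. The 15 include Hoxc10 (5.97) and Hoxc9 (2.85), which are also counted among the Hox genes below. The count was again 15 without aPVAT cKO 4 and aPVAT control 2. Cyp2e1, a cytochrome P450 of small molecules, was at 3744, 3847 and 5571 CPM against 1555, 1376, 1386 and 1742 CPM (1.53, SE 0.14). Resistin (Retn) was at 768, 667 and 768 CPM against 319.6, 369, 263 and 248 CPM (1.29, SE 0.12). Leptin (Lep), the satiety hormone of fat, was at 113, 118 and 179 CPM against 58, 32.6, 44.1 and 53 CPM (1.54, SE 0.42). Each of these had groups that did not overlap, which the rule for abundant genes required of Cyp2e1 and Retn. It was not required of Lep, which was named only as a gene of a fixed panel.

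Psat1, an enzyme of serine synthesis, was higher by 1.84, and adipsin (Cfd), a complement protease of fat, was at 8938, 8531 and 10159 CPM against 4411, 5235, 4497 and 4204 CPM (1.01). Beige selective genes were 7 higher and 1 lower of 12, with a median of 0.69, and Tbx1 was the lower gene. Hoxc9 is among the 7 as well. Genes of the classical brown lineage were 1 higher (Epsti1) and 7 lower of 12, with a median of -0.74 that came to -0.09 with library size alone. Zic1, the best known of that lineage, had 0 to 2 counts in all libraries.

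Regulators of the thermogenic program were mixed. Of 38 genes of the Prdm16 complex and of the PPAR, ERR and PGC1 axis, 19 were lower and 4 higher (Cebpd, Klf15, Rxra and Ehmt2), with a median of -0.32 that turned to 0.33 with library size alone. Esrrg, an estrogen-related receptor of oxidative tissues, was at 1.73, 1.77 and 2.61 CPM against 22, 18.7, 24.3 and 27.3 CPM (-3.53). Esrrb, its relative, was at 0.227, 0.107 and 0.171 CPM against 6.81, 8.03, 9.79 and 11 CPM (-5.70). Ppara (-2.61) and Ppargc1b (-2.67) were lower too, and the corepressors Ctbp1 (-0.01) and the demethylase Kdm1a (0.01) were not called.

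**Figure D2:**
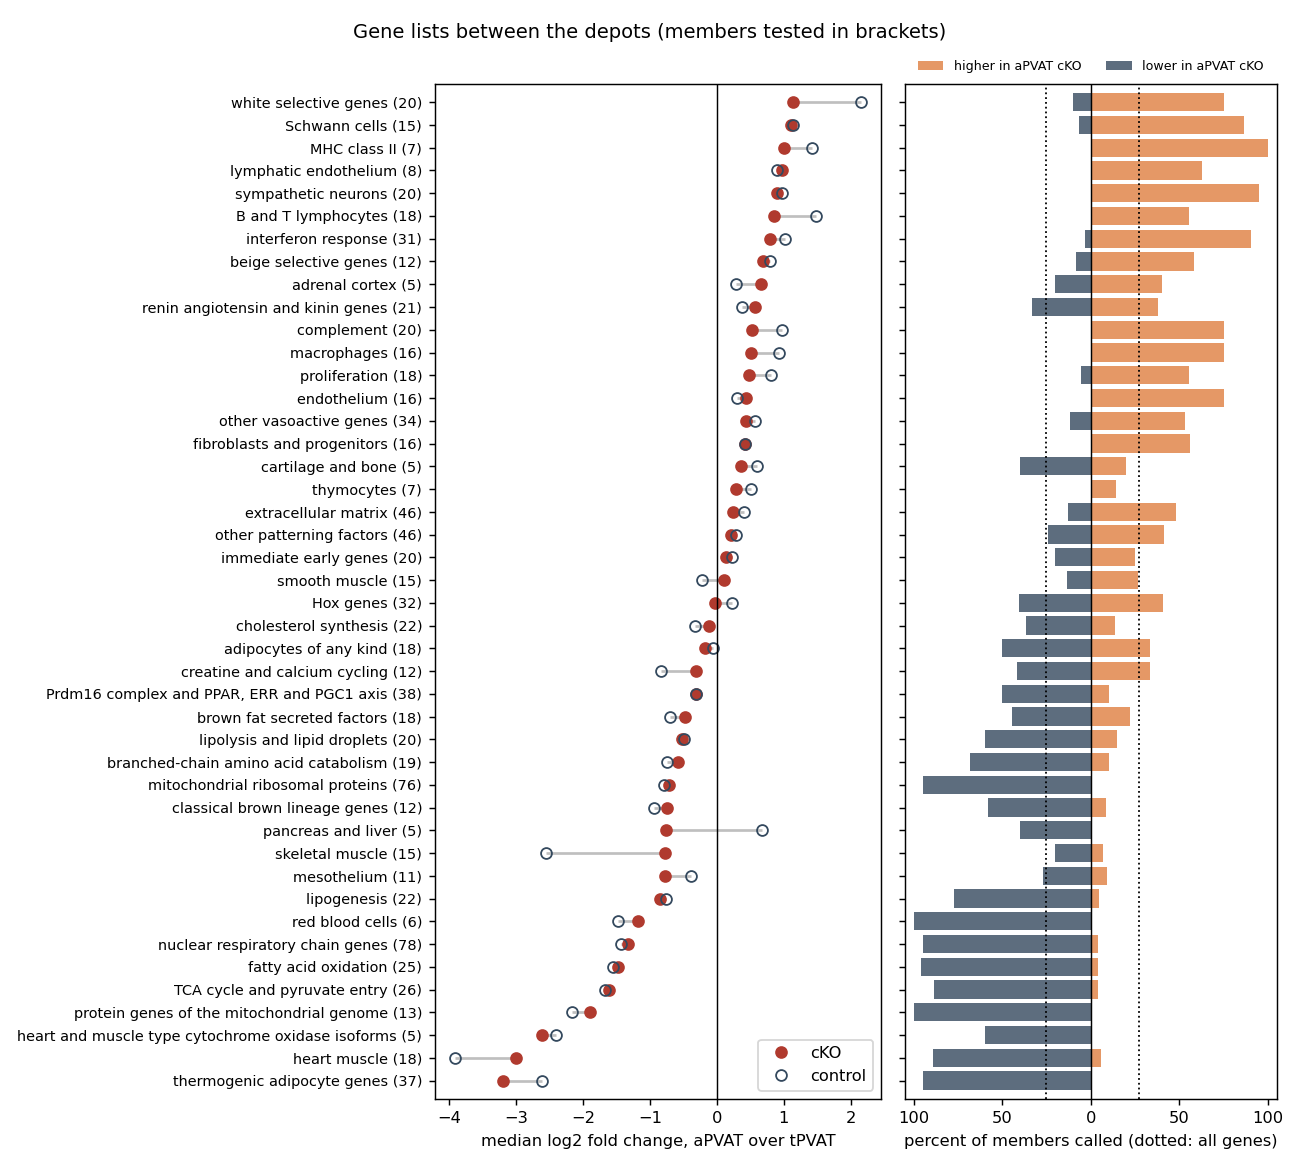
Left, median log2 fold change (aPVAT minus tPVAT) of each gene list with at least 5 tested genes, in cKO (filled) and in controls (open); right, percent of each list called higher or lower in cKO, with dotted lines at the all-gene shares of 27.2% and 25.4%. Thermogenic genes (median -3.21) and heart muscle markers (-3.0) lie farthest down.

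Hox genes, which mark position along the body axis, differed by their place in the clusters. Of 32 tested, 13 were higher and 13 lower in aPVAT cKO, with a median of -0.02, or 0.63 with library size alone. In paralog groups 9 to 13, all 11 tested were higher (median 4.61, or 3.63 with the 4 genes below at their bound), and the control median was 5.12. In groups 1 to 4, 1 of 10 was higher and 7 were lower (median -0.67), and in groups 5 to 8, 1 of 11 was higher and 6 were lower (median -0.37).

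Hoxc10 was at 24.6, 21 and 25.4 CPM in aPVAT cKO against 0.518, 0.384, 0.298 and 0.288 CPM in tPVAT cKO (5.97, SE 0.22, adjusted p 8.43e-11). Hoxa10 was at 14.7, 11.3 and 11.9 CPM against 0.465, 0.651, 0.458 and 0.479 CPM (4.61). Hoxa11, Hoxa13, Hoxc11 and Hoxd11 had no count in any tPVAT cKO library. Against a floor of 3 counts over that group they were at least 73.0-fold, 38.4-fold, 18.3-fold and 11.0-fold higher in aPVAT cKO, where Hoxa11 had 39 to 95 counts. Hoxa4 went the other way, at 3.54, 2.33 and 2.61 CPM against 10.5, 8.84, 12.2 and 12.9 CPM (-1.97), and so did Hoxa5 (-1.36). Hoxd8 (2.14) and Hoxd4 (1.36) were the genes called higher in the lower groups, both of cluster D. Hoxd3, of the same cluster and with few reads, was at 1.65 (SE 0.68) and not called (adjusted p 0.0514). In controls Hoxd3 was called at 2.77.

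**Figure D3:**
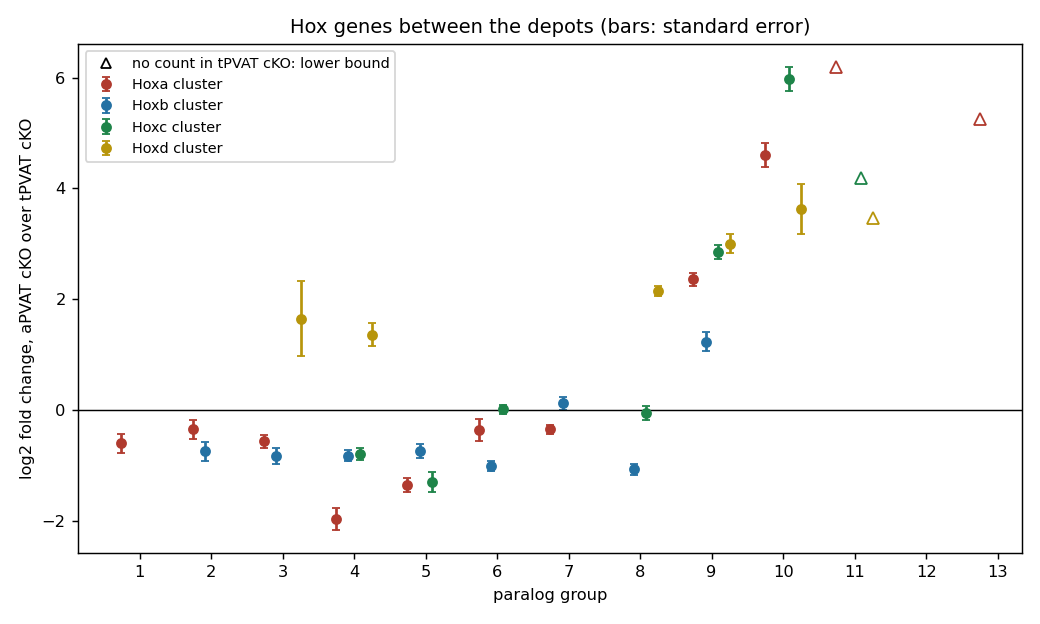
Log2 fold change of each tested Hox gene (aPVAT cKO minus tPVAT cKO) by paralog group, with bars of 1 SE and colours for clusters A to D; open triangles are lower bounds for genes with no count in tPVAT cKO. The 11 genes of groups 9 to 13 lie above 0, and most of groups 1 to 8 lie at or under 0.

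Other genes with the largest rise included Serpina3b, a protease inhibitor of a gene family whose members can share reads, at 146, 151 and 224 CPM against 1.38, 3.34, 2.01 and 1.92 CPM (6.32). C6, a component of the complement attack complex, was at 23.4, 21.2 and 25.7 CPM against 0.59, 0.718, 0.279 and 0.249 CPM (5.64). Complement as a list had 15 of 20 higher and none lower, with a median of 0.53. Extracellular matrix genes had 22 higher and 6 lower of 46 (median 0.25), with decorin (Dcn) higher by 1.0 and Col12a1 lower by 1.41 on the log2 scale. Rn7sk, a small nuclear RNA, was higher by 4.77, and without aPVAT cKO 4 by 1.60 with an adjusted p of 0.0640.

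Genes that act on vessels went both ways. Of 21 renin-angiotensin and kinin genes, 8 were higher (38.1%) and 7 lower (33.3%), with a median of 0.57. The shares of all tested genes were 27.2% and 25.4%, not far from these. The kininogens, precursors of bradykinin, were lower: Kng2 was at 0.816, 1.07 and 0.193 CPM against 27.4, 19.2, 36.2 and 30.4 CPM (-5.23), and Kng1 differed by -4.12. Among angiotensin receptors, Agtr1b (3.56), Agtr2 (3.07) and Agtr1a (0.62) were higher. Angiotensinogen (Agt) was higher by 0.83.

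Of 34 other vasoactive genes 18 were higher and 4 lower (Nppa, Npr3, Ptgds and Ptgis), with a median of 0.44. Endothelin 1 (Edn1), a constrictor peptide, was at 14.7, 12.8 and 15.3 CPM against 5.56, 6.24, 5.37 and 4.3 CPM (1.41), and its receptor Ednra was higher by 1.32. Endothelial nitric oxide synthase (Nos3) was at 86.6, 72.7 and 87.8 CPM against 45.9, 50.7, 49.2 and 43.7 CPM (0.80). Endothelial markers moved the same way: 12 of 16 were higher and none was lower, with sums of 1826 to 2173 CPM against 1297 to 1335 CPM, and their part in these differences was not tested. The count of 4 lower genes became 1 or 2 when certain single libraries were left out.

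Nerve genes were higher in abdominal fat. Of 20 markers of sympathetic neurons, the nerves that drive thermogenesis, 19 were higher and none lower, with a median of 0.90 and sums of 1317 to 1878 CPM against 535 to 1049 CPM. The count was 19 without aPVAT cKO 4 and aPVAT control 2. Npy, a cotransmitter of these nerves, was at 92.1, 99.6 and 87 CPM against 24.9, 30.9, 16.5 and 22.8 CPM (1.96), and tyrosine hydroxylase (Th), which starts noradrenaline synthesis, was at 99.4, 124 and 82.9 CPM against 62, 74.8, 34.1 and 54.4 CPM (0.86). The noradrenaline transporter Slc6a2 had overlapping groups, 230.2, 358 and 217 CPM against 200.5, 235, 109 and 169 CPM (0.59, adjusted p 0.0498), and was not called when any of several single libraries was left out.

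Schwann cell genes were higher for 13 of 15, with a median of 1.11 and sums of 622 to 740 CPM against 312 to 392 CPM. S100b, which brown adipocytes also make, was the lower gene. All 4 tested chromaffin cell genes were higher as well, 3 of them shared with sympathetic neurons. The list's other gene, Pnmt, had 0 to 2 counts in cKO libraries of both depots and did not pass the low-count filter. Penk, an opioid precursor, was at 64.6, 68.2 and 78.1 CPM against 11, 11.9, 9.37 and 8.3 CPM (2.79).

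Genes of immune cells and of the interferon response were higher in abdominal fat. Of 31 interferon response genes 28 were higher, with a median of 0.80, and 30 were higher without aPVAT cKO 4 and aPVAT control 2. Ifi27l2a was at 700.1, 656 and 848 CPM against 274, 335, 304 and 258 CPM (1.33), while Ifi27 was lower, at 187, 160.1 and 167 CPM against 362, 319, 361 and 353 CPM (-1.02). All 7 genes of MHC class II were higher (median 1.0). Macrophage markers were higher for 12 of 16 and for 7 without aPVAT cKO 3. Lymphocyte markers were higher for 10 of 18 and for 4 without aPVAT cKO 1, with sums of 163 to 274 CPM against 67.6 to 172 CPM that overlapped. Thymus markers Rag2, Foxn1, Psmb11, Ptcra and Prss16 had 0 to 5 counts.

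Most of the depot difference was shared with controls. The 2 comparisons share no library in their group means. Both came from 1 fit of all 15 libraries, with a common filter, scaling and estimate of spread, so their calls are not independent. Of the genes called in cKO, 8844 were called in the same direction in controls, which is 85.7% of the cKO calls and 79.5% of the control calls. In both comparisons 8874 genes were called, and 30 of them went in opposite directions. A further 1451 genes were called in cKO alone and 2248 in controls alone, which by itself does not show that they differ. Across genes, which are not independent replicates, the log2 fold changes of the 2 comparisons had a Pearson r of 0.868 and a Spearman rho of 0.882.

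**Figure D4:**
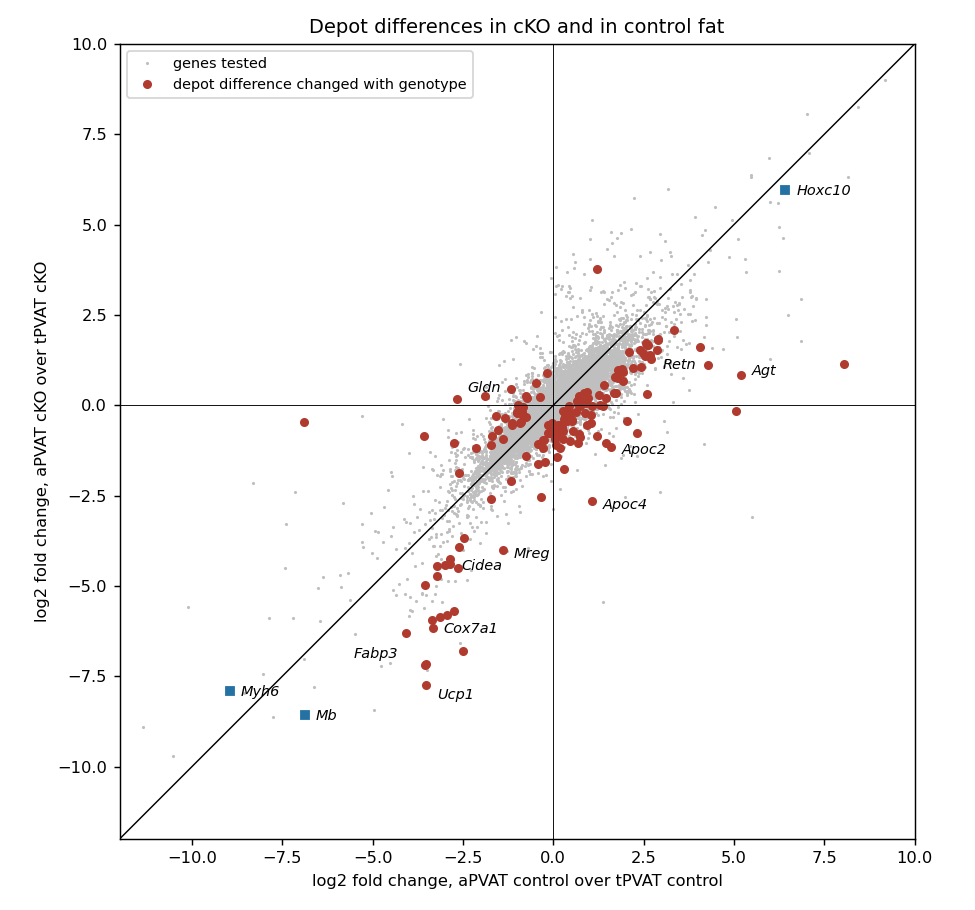
Log2 fold change of each tested gene between depots in controls (x axis) and in cKO (y axis), both aPVAT minus tPVAT; red points are the 154 genes whose depot difference itself differed between genotypes, and blue squares mark Hoxc10, Myh6 and Mb. Most genes lie along the diagonal, with a Pearson r of 0.868 across genes.

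The depot difference itself was tested against that of controls with an interaction term, the cKO difference minus the control difference. It was called for 154 genes (0.784%), 31 positive and 123 negative. Without aPVAT cKO 4 and aPVAT control 2 there were 177 interaction calls, 21 positive and 156 negative. The counts that follow are of the 154. The gap was wider in cKO in the same direction for 38 genes, of which 37 were lower in aPVAT. It was narrower for 64, of which 43 were higher and 21 lower in aPVAT, and for 52 the 2 fold changes had opposite signs. Azgp1 was the only gene higher in aPVAT with a wider gap, 3.76 in cKO against 1.21 in controls, and it is named because its count was 1.

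Of the 37 thermogenic genes 12 were called in the interaction, 11 negative and 1 positive (Impdh1, 0.60). None of the 78 nuclear respiratory genes and none of the 13 mitochondrial protein genes was called. For Ucp1 the interaction was -4.22 (SE 0.85, adjusted p 0.0256), for Fabp3 -3.65, for Cpt1b -2.88, for Cox7a1 -2.83 and for Cidea -1.55. All had the same direction in controls, with smaller gaps of -3.52, -3.54, -2.94, -3.33 and -2.85. Cpn2, a regulatory subunit of carboxypeptidase N that cleaves kinins, was at 0.249, 0.345 and 0.214 CPM against 17.4, 12.8, 15.3 and 19.5 CPM in cKO, with an interaction of -2.72. Bmp8b, a secreted factor of brown fat with few reads in abdominal fat, went from -2.51 in controls to -6.80, and Esrrb from -2.75 to -5.70.

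For 5 of 20 white selective genes the interaction was called, and the gap was narrower in cKO. Agt, the precursor of angiotensin, was at 100.1, 100.1 and 107 CPM in aPVAT cKO and at 56.8, 74.5, 53.2 and 45.9 CPM in tPVAT cKO, a difference of 0.83 (SE 0.16, adjusted p 4.57e-04). In controls it was at 38.9 to 56.5 CPM in aPVAT and at 0.873 to 1.63 CPM in tPVAT, a difference of 5.21. The interaction was -4.38 (SE 0.25, adjusted p 1.45e-07). The tPVAT cKO libraries thus lay within or above the range of control aPVAT.

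Resistin narrowed from 2.71 in controls to 1.29, with control tPVAT at 66.9 to 81.6 CPM, and Cyp2e1 from 2.86 to 1.53. Psat1 went from 2.91 to 1.84 and Cfd from 1.91 to 1.01. Leptin did not pass this test (-0.80, adjusted p 0.797), with control libraries that ranged from 65.6 to 233 CPM in aPVAT.

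For some genes the depot difference of controls was not called in cKO on the TMM scale. Cyclin D2 (Ccnd2), which promotes entry into the cell cycle, was at 244, 249.9 and 278 CPM against 247, 258, 272 and 275 CPM in cKO (-0.03, SE 0.08), with groups that overlapped. In controls it was at 126 to 150.5 CPM in aPVAT and 62.3 to 70.4 CPM in tPVAT (1.06). Gliomedin (Gldn), known as an adhesion protein of Schwann cells, was at 2.31, 2.7 and 2.35 CPM against 2.04, 2.25, 2.03 and 2.4 CPM in cKO (0.18, SE 0.23). Control tPVAT held 10.1 to 21.1 CPM of Gldn. Schwann cell genes summed to 291 to 366 CPM in control tPVAT and 312 to 392 CPM in tPVAT cKO. Which cells made the Gldn reads was not tested. Qsox1, a sulfhydryl oxidase (0.03 in cKO, 0.70 in controls), and the receptor gene Adgrg2 (0.19 and 1.46) followed Ccnd2. With library size alone the cKO difference was called for all 4, at 0.62 for Ccnd2, 0.83 for Gldn, 0.68 for Qsox1 and 0.84 for Adgrg2. That of Adgrg2 was also called without tPVAT cKO 2 (0.28, adjusted p 0.0140) and with a fixed replicate block (0.28, adjusted p 0.0414). The interaction was called for all 4 genes.

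In 30 genes the depot difference was called in opposite directions in the 2 genotypes, and for 24 of them the interaction was called as well. This group depends on scaling: of the 10 named, Akr1b3, Aldh3b3, Pla2g6, Orm2 and Pyroxd2 had positive cKO differences with library size alone, and those of Aldh3b2, Serpina1a and Hsd17b14 stayed negative but were not called. Aldh3b2, a fatty aldehyde dehydrogenase, was at 95.1, 79.6 and 103 CPM in aPVAT cKO against 172, 142, 165 and 186 CPM (-0.85, SE 0.12), and in controls at 35 to 41.9 CPM against 14.6 to 19.6 CPM (1.22). Its interaction was -2.07 (adjusted p 7.10e-06), and with library size alone its cKO difference was -0.19. The lipoprotein gene Apoc2 was at 2.94, 2.35 and 2.89 CPM against 6.02, 5.29, 6.74 and 6.16 CPM (-1.15, control 1.60). Apoc4, its neighbour in the apolipoprotein cluster, was at 1.27, 0.965 and 1.22 CPM against 7.81, 5.72, 8.06 and 7.5 CPM (-2.66, control 1.07). Its control difference rests on few reads, 0.076 to 0.174 CPM in aPVAT and 0.037 to 0.099 CPM in tPVAT, and the control groups overlapped. The phosphodiesterase Pde1b differed by -1.0 against 0.47 in controls.

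Melanoregulin (Mreg) had the same direction in both genotypes with a wider gap in cKO. It was at 1.63, 1.43 and 1.65 CPM against 25, 17.1, 28.1 and 31.3 CPM in cKO (-4.02) and at 1.22 to 1.8 CPM against 3.3 to 4.26 CPM in controls (-1.39). Alkaline phosphatase (Alpl), which also takes part in creatine cycling, was at 6.84, 7.08 and 7.7 CPM against 44.4, 42.7, 41.9 and 45.5 CPM (-2.60, control -1.72). In both, every tPVAT cKO library lay above every control tPVAT library, where Alpl was at 24.8 to 27.9 CPM.

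**Figure D5:**
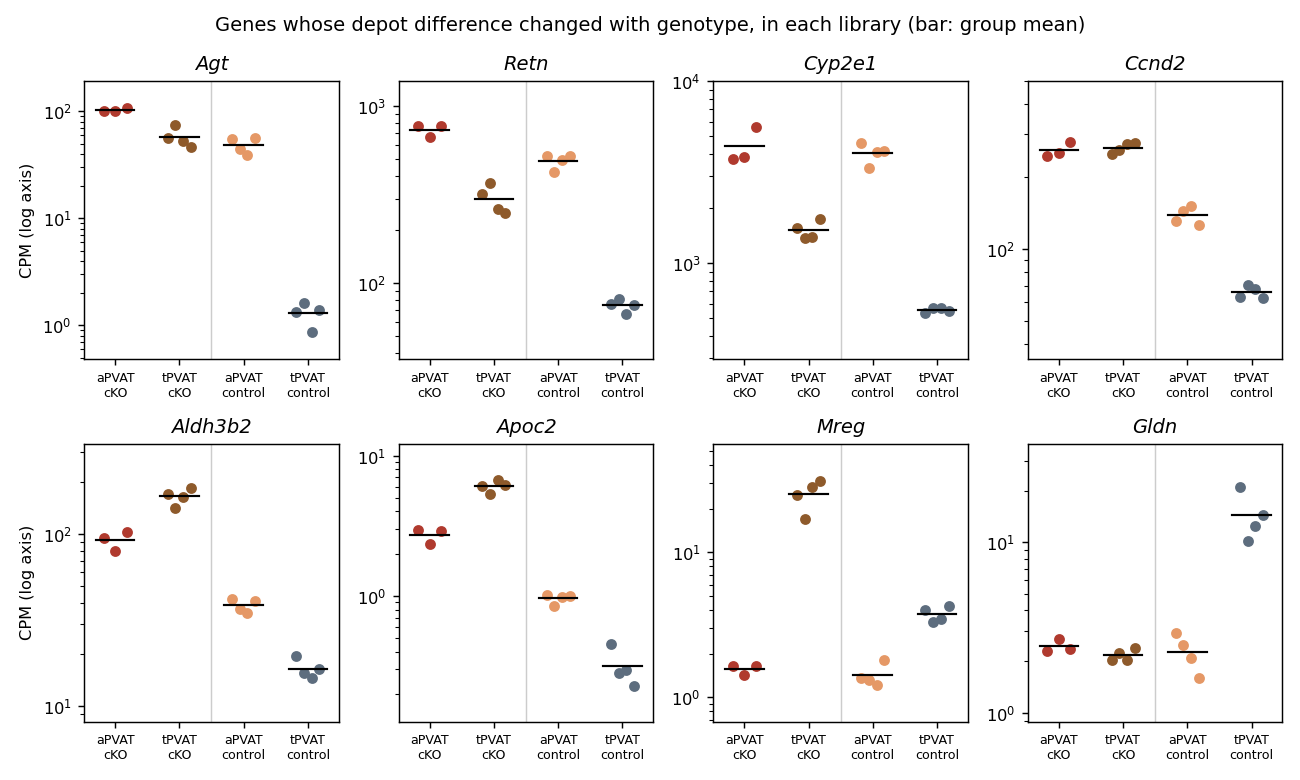
Level of 8 genes with a called interaction in each library, in CPM on a log axis, for the 4 groups; each point is 1 library and each bar the group mean. Agt, Retn and Cyp2e1 are higher in tPVAT cKO than in control tPVAT, where Agt is at 0.873 to 1.63 CPM, and Ccnd2 and Gldn overlap between depots in cKO.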

How the data were processed

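Poly(A) RNA of thoracic and abdominal PVAT was made into stranded mRNA libraries, per the labels' protocols. The authors deposited 1 table of raw counts for 43352 genes in 15 libraries. The submitters' processing notes list mm10 as build and, with no role stated, the tools Salmon, DESeq2 1.42.1 and Subread. Which of them counted reads, and with what strand setting, was not given in the sources used here, so reads of overlapping opposite-strand genes (B230104I21Rik with Prdm16, Apol6 with Mb, Gm49130 with Myh6, Zcchc17 with Fabp3, Pitx3 with Elovl3, Gm16537 with Gpd1, A830012C17Rik with Penk, Atg9b with Nos3, Gm17244 with Bmp8b) cannot be told apart. The library numbered 2 of aPVAT cKO was not analysed here.

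Groups came from the sample titles. Symbols and coordinates came from GENCODE M21 for 42468 identifiers (98.0%). In R 4.3.3, filterByExpr of edgeR 4.0.16 (minimum count 10) kept 19645 genes with 99.98% of counts. Libraries were scaled by TMM, with factors of 1.24 to 1.34 in aPVAT cKO and 0.790 to 0.879 in tPVAT cKO. One quasi-likelihood model of 4 group means took in all 15 libraries, with a common biological coefficient of variation of 0.142. Adjusted p-values are Benjamini-Hochberg values over all tested genes. Shares of counts were compared by exact permutation (scipy 1.17.1). The steps were tested on simulated data.

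The compared samples, the 47 gene lists and the tests were chosen with earlier results of these data known. Lists are described by counts and medians, with no test. Named genes were, among non-overlapping called genes with mean log2 CPM of at least 1, the 12 largest and 12 smallest fold changes, the 8 with most reads per depot at 2-fold, up to 4 members per list, a fixed panel, the 10 smallest interaction p-values and 10 genes of opposite direction. Other genes named were chosen after their values were seen, and a few genes are not reported here. Alternatives were other scalings, filters, DESeq2 1.42.0, limma 3.58.1, fold thresholds, replicate blocks and left-out libraries.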

Additional observations from a re-analysis of the deposited data

Results flagged for a closer look

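In 9 cases 1 of the 4 libraries of a group stood apart from the others by Dixon's gap ratio, where chance gives about 1 in 20 and 156 groups were looked at. In tPVAT cKO 1, Scd1 was at 65738 CPM (others 60384 to 60808) and Meox2 at 15.8 CPM (17.3 to 17.4). In tPVAT cKO 2, Hoxa10 was at 0.651 CPM (0.458 to 0.479), Cycs at 282 CPM (313 to 319), Mrps36 at 28.2 CPM (36.2 to 36.8) and Alb, the albumin gene of liver, at 8.86 CPM (0.614 to 0.697). In tPVAT cKO 3, Plin2 was at 1060 CPM (889 to 917) and Pyroxd2 at 4.68 CPM (5.43 to 5.54). The share of Gm42418 was 0.898% in aPVAT control 2 (0.103% to 0.158%). Alb was not called between depots in cKO (1.37) but was called at 3.41 (adjusted p 0.00253) without tPVAT cKO 2.

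The depot difference of 34 named genes differed between genotypes by the interaction test, given here as cKO minus control on the log2 scale. Among thermogenic genes and their copies it was -4.22 for Ucp1, -3.65 for Fabp3, -3.66 for Fabp3-ps1, -2.88 for Cpt1b, -2.83 for Cox7a1, -2.72 for Cpn2, -2.60 for Slc27a2, -1.55 for Cidea, -1.43 for Acot11, -1.39 for Pdk4 and -1.30 for Otop1. Among genes higher in aPVAT in both genotypes it was -4.38 for Agt, -1.42 for Retn, -1.32 for Cyp2e1, -1.07 for Psat1 and -0.91 for Cfd. Genes of opposite direction had -3.73 for Apoc4, -2.75 for Apoc2, -2.07 for Aldh3b2, -1.61 for Serpina1a, -1.54 for Aldh3b3, -1.50 for Hsd17b14, -1.47 for Pde1b, -0.95 for Orm2, -0.81 for Akr1b3, -0.69 for Pyroxd2 and -0.61 for Pla2g6. The rest were -2.62 for Mreg, -1.26 for Adgrg2, -1.09 for Ccnd2, -0.88 for Alpl, -0.67 for Qsox1, 0.96 for Pm20d1 and 2.85 for Gldn.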

How the results depend on the processing

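The count of 10325 depot calls in cKO stayed within 1.5 times under every alternative run except a test against a 2-fold threshold (1035, with 1497 in controls and 11 for the interaction). DESeq2 called 350 genes for the interaction against 154. With library size alone there were 15006 calls in cKO and 16037 in controls. Leaving out 1 library gave 9090 to 10150 calls in cKO, 10242 to 11158 in controls, 114 to 189 for the interaction, and -17.5 to -15.8 points for the mitochondrial share. With a fixed replicate block there were 9753, 10765 and 148 calls. Deviations of same-numbered libraries correlated at -0.030 to 0.165 in cKO, and those of different-numbered libraries at -0.134 to 0.116. So few pairs cannot show whether the samples are paired. The labels state no pairing, and the main model had no replicate block.

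With library size alone 13 named genes turned direction: Prdm16 (0.17), Ctsd (0.0069), Ebf2 (0.030), Ccnd2 (0.62), Akr1b3 (0.21), Aldh3b3 (0.15), Pla2g6 (0.36), Orm2 (0.21), Pyroxd2 (0.26), Cd1d1 (0.48), Pi16 (0.40), Upk3b (0.0078) and Lamp3 (0.63). Another 7 lost their call: Acly, Ebf3, Lhx8, Aldh3b2, Serpina1a, Hsd17b14 and Hba-a2. The 6 that gained a call were Qsox1, Adgrg2, Gldn, F13a1, Acta2 and Lyve1. Leaving out 1 library turned genes that were not called, with ranges of -0.035 to 0.10 for Qsox1, -0.090 to 0.0035 for Ccnd2, -0.076 to 0.25 for F13a1, -0.051 to 0.33 for Lyve1 and -0.15 to 0.16 for Lamp3 (0.00083 without tPVAT cKO 1), and to -0.012 for Acta2 without aPVAT cKO 4. Without both aPVAT cKO 4 and aPVAT control 2, an alternative chosen after seeing the data, Qsox1 was at -0.035 and Acta2 at -0.012.

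Depth limits genes of few reads, such as Bmp8b in aPVAT cKO. With 3 and 4 libraries and 1 age, only the spread of these samples is known.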

Other observations

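Of 46 patterning factors other than Hox genes, 19 were higher (41.3%) and 11 lower (23.9%) in aPVAT cKO, against 27.2% and 25.4% of all tested genes, with a median of 0.21 beside 0.04. Nr2f2, a nuclear receptor of vein and mesenchyme development, was at 66.7, 71.6 and 70.5 CPM in aPVAT cKO against 31, 32.1, 32.5 and 32.4 CPM in tPVAT cKO (1.12, SE 0.08), and its control difference was 1.0. Tcf21, a mesenchymal factor of visceral organs, was at 2.2, 2.14 and 2.29 CPM against 0.25, 0.167, 0.477 and 0.211 CPM (3.01). Lhx9 and Pitx1, factors of limb and gonad patterning, lay at 0.429 to 0.728 CPM in aPVAT cKO and at 0 to 0.0384 CPM in tPVAT cKO. Tbx5, a factor of heart and forelimb, was lower (-2.42) and belongs to the heart muscle list as well.

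Proliferation genes were 10 higher and 1 lower (Tyms) of 18 (median 0.49), and Mki67 was not called (-0.11). Immediate early genes were 5 higher (Btg2, Egr1, Egr2, Egr3 and Zfp36) and 4 lower (Nr4a1, Nr4a2, Nr4a3 and Dusp1) of 20. These shares of 25% and 20% were no larger than those of all tested genes, 27.2% and 25.4%. The higher count was 3 without tPVAT cKO 4. Red blood cell genes were lower for 6 of 6 (median -1.17), though Hba-a2 overlapped between groups and was not called with library size alone. Skeletal muscle genes were 1 higher (Actn3, 6.67%) and 3 lower (Ckm, Casq1 and Myl1, 20%) of 15, both under the all-gene shares. Without aPVAT cKO 3, 9 were lower. The list median was -0.77, with sums of 25.0 to 40.4 CPM in aPVAT cKO and 60.1 to 81.0 CPM in tPVAT cKO. In controls 13 of the 15 were lower and 1 higher in aPVAT, with a median of -2.56. Lymphatic endothelium genes were 5 higher of 8, and fibroblast genes 9 higher of 16 (median 0.41).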
